A study of Mus musculus with 6 samples.

Results

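The data describe how the response of mouse endothelial cells to tobacco smoke differed between 6 weeks and 1 week of exposure. For every gene the mean deposited log2 ratio at 1 week, likely smoke over control, was subtracted from that at 6 weeks. All 19242 tests of the table took part: 11138 named genes, whose spots were averaged, and 8104 features without a single gene symbol. Genes were then described by the course of their response, as transient (present at 1 week only), late (present at 6 weeks only) or reversed (of opposite sign at the 2 times). These 3 classes held 213 of the 19242 tests and 89 of the 11138 named genes.

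The arrays carried 2 channels each, with total RNA of sorted endothelial cells from smoke-exposed mice in channel 1 and from control mice in channel 2. At 1 week there were 3 arrays, smoke against control, of which replicate 1 is labelled a dye reversal; the age or handling of these controls is not given. At 6 weeks there were also 3 arrays: replicate 1 compared 6-week smoke with a 1-week control, replicate 2 was the dye reversal of that comparison, and replicate 3 compared 6-week smoke with a 6-week control. On replicates 1 and 2 at 6 weeks, smoke and control thus differ in labelled weeks as well as in smoke, and these cannot be told apart. The dye pair was averaged first, so that 3 replicates at 1 week faced 2 at 6 weeks. Strain, age, tissue, sorting marker, smoke dose and the number of animals per RNA are not given in the sources used here, and nothing says that the replicates came from separate animals, so p-values measure the spread between arrays, which may be technical.

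Endothelial cells line all blood vessels, regulate clotting, leukocyte entry and vessel tone, and deposit a basement membrane. Smoke constituents reach them through the lung capillaries and the blood, and include oxidants and aryl hydrocarbons. Cells that meet a stress repeatedly can lose an early transcriptional response, keep it, or replace it with other programmes of inflammation, metabolism or matrix production.

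A positive ratio is read as likely higher after smoke, because the titles name smoke first and channel 1 holds the smoke RNA on all 6 arrays; the direction is not stated. Nor is it stated whether the dye-reversed arrays were turned before deposit, and the deposited sign was kept. A log2 ratio of 1 is a 2-fold ratio. The 1-week control RNA may have been shared by arrays of both times, which would tie the times together, so no similarity between the 2 responses is given. Because a ratio carries no level, the endothelial identity of the cells could not be checked against markers, and a change in the share of cells cannot be told apart from a change of RNA per cell. All columns were centred at a median of 3e-07. Paired spots of a gene correlated between 0.21 and 0.419 across genes within an array, and 5625 named genes had spots within 1 log2 unit of each other on every array; these are called genes with agreeing spots.

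The difference between 6 weeks and 1 week was centred on 0.00 over named genes, and 50.2% of them had a positive difference. No test passed an adjusted p of 0.05 in limma over all 19242 tests, which is 0% called, and the smallest adjusted p was 0.951. At an unadjusted p under 0.05 there were 684 tests, or 3.55%, of which 331 were positive and 353 negative; 5% of the tests would be 962. Among named genes the same threshold took 377, or 3.38%: 170 positive (1.53%) and 207 negative (1.86%). The arrays at 1 week did not overlap the 6-week replicates in 3471 of 19242 tests, or 18%. Everything below on single genes is therefore a description of measured ratios, with its error, and not a list of called differences. The median standard error of the difference was 0.32 log2 units over named genes and 0.27 over genes with agreeing spots.

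Restricting the limma fit to the 5625 genes with agreeing spots brought the smallest adjusted p of the difference to 0.0699, for Rps18, a protein of the small ribosomal subunit. Next came Gpr160, Klf2, Dynll1 and Plagl1, each at 0.134, and Serpina1c at 0.149. Of these 6 genes, 4 belonged to the transient class, Serpina1c to the late class, and Plagl1 stood just outside the late class. With the spots held within 0.5 log2 units, Rps18 passed at an adjusted p of 0.0409.

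**Figure D1:**
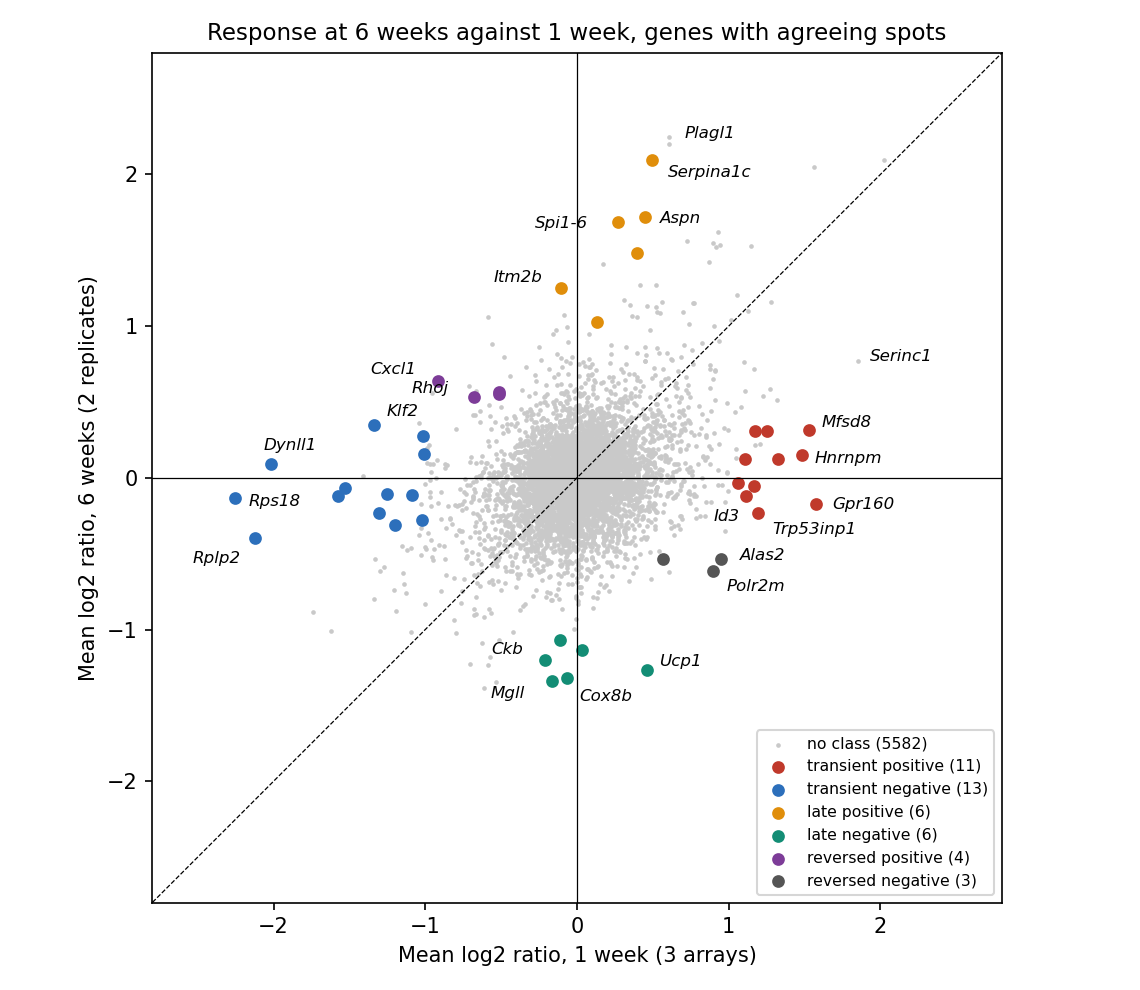
Mean log2 ratio at 6 weeks (vertical axis, 2 replicates) against 1 week (horizontal axis, 3 arrays) for the 5625 genes with agreeing spots; coloured points are class members, grey points are the other 5582 genes, and the dashed line marks equal ratios. Transient genes lie along the horizontal axis, late genes along the vertical axis, and reversed genes in the upper left and lower right quadrants.

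A gene was called transient when its ratio had one sign on all 3 arrays at 1 week with a mean of at least 1, a 6-week mean under 0.5 in size and an unadjusted limma p of the difference under 0.05. The late class required one sign on both 6-week replicates with a mean of at least 1, a 1-week mean under 0.5 in size and the same p. Reversed genes had consistent and opposite signs at the 2 times, both means at least 0.5 in size, and the same p. Since these values chose the members, the classes are given without a test. The transient class held 64 of all tests (0.333%) and 32 named genes (0.287%). The late class held 107 tests (0.556%) and 36 named genes (0.323%), and the reversed class 42 tests (0.218%) and 21 named genes (0.189%). Spots agreed for 24 of the 32 named transient genes, 12 of the 36 late genes and 7 of the 21 reversed genes. The 43 class members with agreeing spots are the ones described in full.

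At the edge of the classes, Col4a1 and Ctsq stood just inside the transient limit, and Mgmt and Cnih4 just outside it, all with 1-week means of -1.0 when rounded. For the late class Tbc1d8 (6-week mean 1.02) and Tmigd1 (-1.03) were just inside, and Il6 (1.00) and Ubr2 (-1.0) just outside. For the reversed class Pnrc2 and Tsen15 were just inside, with 1-week means of 0.51 and -0.51, and Flna (-0.48) and 4930473A02Rik (-0.50) just outside.

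Genes that were low at 1 week and near control at 6 weeks were led by the protein synthesis machinery. The negative side of the transient class had 13 genes with agreeing spots. Of these, 6 encode cytosolic ribosomal proteins (Rps18, Rplp2, Rps16, Rps24, Rps4x and Rpl29), and 2 are on the list of translation factors (Eif3k and Tpt1); of all 5625 genes with agreeing spots, 47 and 22 are on these lists. The other 5 were Klf2, Dynll1, Naca, Trmt112 and S100a11. In the agreeing-spot fit, 12 of the 13 passed an adjusted p of 0.05 at 1 week, all except Tpt1 at 0.0555, and none at 6 weeks; over all genes of that fit 1.81% were called at 1 week and 0.213% at 6 weeks. Size at 1 week was part of the choice, so this count carries no weight of its own.

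Rps18 had log2 ratios of -2.38, -2.18 and -2.20 on replicates 1, 2 and 3 at 1 week and of 0.00, -0.63 and 0.05 on replicates 1, 2 and 3 at 6 weeks. All 1-week arrays were low, the arrays at 6 weeks lay near 0 with the dye-reversed one lowest, and the times did not overlap. The difference was 2.12 ± 0.25 (limma SE, 3 and 2 replicates). Rplp2, an acidic protein of the ribosomal stalk, had 1-week ratios of -1.93, -1.99 and -2.44 and 6-week ratios of -0.65, -0.94 and 0.00. Here the 2 arrays against the 1-week control stayed below 0 and the array against the 6-week control did not, without overlap between the times. The difference was 1.72 ± 0.35.

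Rps24 went from -1.45, -1.23 and -1.92 at 1 week to 0.69, -0.36 and -0.30 at 6 weeks. Its 6-week values fell on both sides of 0, all above the 1-week values, and the difference was 1.46 ± 0.33. For Rps16, Rps4x and Rpl29 the differences were 1.46, 0.98 and 0.74. Eif3k, a subunit of the initiation factor that recruits the small ribosomal subunit to mRNA, read -1.04, -1.29 and -1.58 at 1 week and -0.20, -0.35 and -0.19 at 6 weeks, all 6-week values being closer to 0. Naca, part of a complex that binds nascent chains as they leave the ribosome, and Trmt112, a partner of several methyltransferases, had differences of 1.16 and 0.89.

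Klf2 is a transcription factor that laminar flow induces in endothelium and that holds inflammatory genes low. Its ratios were -1.64, -1.11 and -1.26 at 1 week and 0.57, 0.01 and 0.40 at 6 weeks. Every 1-week array was below every 6-week array, and all 3 arrays at 6 weeks were at or above 0. The difference was 1.68 ± 0.27, and it was 1.63 without the array against the 6-week control and 1.74 with that array alone, so both kinds of control gave a like value. Klf2 passed at 1 week with an adjusted p of 0.00921 in the agreeing-spot fit and had 0.753 at 6 weeks. It was the only one of the 18 measured genes of the flow and quiescence list with an unadjusted limma p under 0.05. Over all named genes 3.38% had such a p.

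Dynll1, the LC8 light chain of dynein, read -2.51, -1.51 and -2.02 at 1 week and -0.11, 0.05 and 0.21 at 6 weeks. The 6-week arrays were tightly around 0 and far from the 1-week arrays, with a difference of 2.10 ± 0.36. S100a11, a calcium-binding protein, had a smaller 1-week ratio on the dye-reversed array (-0.50) than on the other arrays (-1.69 and -1.56), and a difference of 1.14 ± 0.43.

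Genes that were high at 1 week and near control at 6 weeks had no single theme on the lists, although 3 of the 11 with agreeing spots belong to the endolysosome and autophagy list, which has 34 such genes in all: Mfsd8, Rab5a and Nbr1. The other 8 were Gpr160, Hnrnpm, Trp53inp1, Id3, Ist1, Apmap, Rsrp1 and BC005537. All 11 passed at 1 week in the agreeing-spot fit and none at 6 weeks, with the same limit on that count as above. Gpr160, an orphan G protein-coupled receptor, had ratios of 1.26, 1.87 and 1.59 at 1 week and -0.10, -0.28 and -0.16 at 6 weeks. The 6-week arrays were close together, slightly below 0, and clear of the 1-week arrays, and the difference was -1.75 ± 0.28.

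Mfsd8, a lysosomal membrane protein whose loss causes a neuronal storage disease, read 1.42, 1.83 and 1.32 and then 0.39, 0.29 and 0.29. All 6 arrays were positive, and the difference was -1.21 ± 0.27. Rab5a, the GTPase of early endosomes, had 1-week values of 1.13, 1.02 and 1.02 and 6-week values of -0.29, -0.50 and 0.32. The array against the 6-week control was positive and the pair against the 1-week control negative, and the difference of -1.10 was -0.74 on that array alone and -1.45 on the pair alone. Nbr1, an autophagy receptor, and Ist1, which acts with ESCRT-III in membrane scission, had differences of -0.86 and -1.22.

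Hnrnpm, a splicing regulator, was at 1.29, 1.65 and 1.51 at 1 week and at -0.48, 0.34 and 0.36 at 6 weeks, with a difference of -1.34 ± 0.27. The 6-week arrays disagreed in sign but none reached the 1-week values. Trp53inp1, a p53-induced protein of autophagy and cell death, had values of 0.85, 1.22 and 1.50 and then -0.32, 0.01 and -0.31, a difference of -1.42 ± 0.29. Id3, an inhibitor of basic helix-loop-helix factors and a target of BMP signalling, read 1.39, 0.71 and 1.24 and then -0.17, 0.24 and -0.27, a difference of -1.23 ± 0.31. In both genes the 6-week arrays straddled 0 and stayed below every 1-week array. Apmap, a membrane protein first described in adipocytes, had a difference of -1.20, and Rsrp1 and BC005537 had -0.98 and -0.94.

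**Figure D2:**
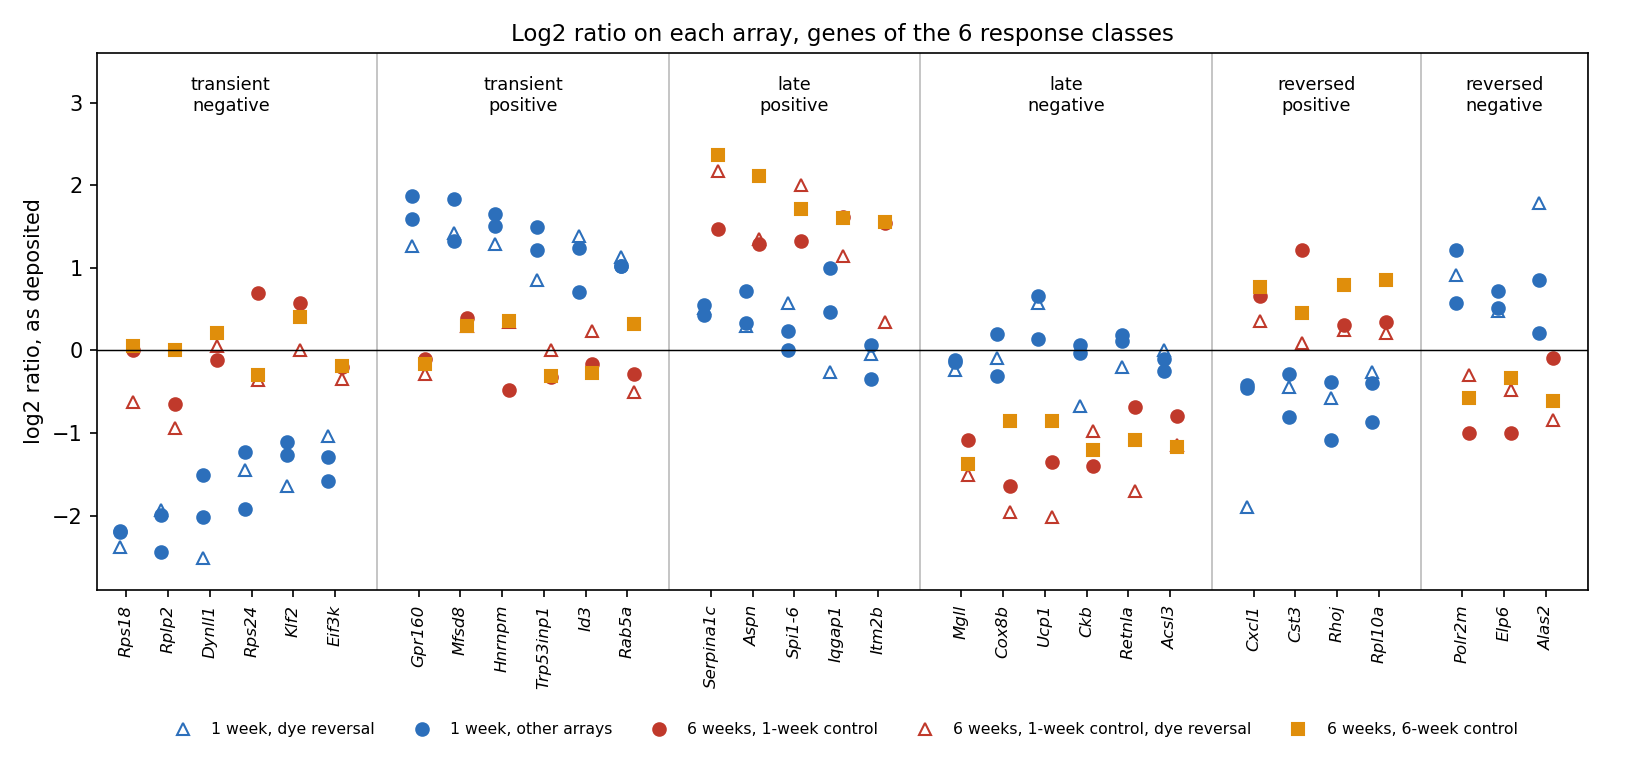
Deposited log2 ratio (vertical axis) of 30 class members with agreeing spots on each of the 6 arrays; blue marks are 1-week arrays, red and orange marks 6-week arrays, and open triangles the dye-reversed arrays. In the transient classes the 1-week marks stand apart from 0, and in the late classes the 6-week marks do.

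The late class held genes of different kinds on its 2 sides. Its positive side had 6 genes with agreeing spots: Serpina1c, Spi1-6, Aspn, Iqgap1, Itm2b and Tbc1d8. Serpina1c is one of the mouse alpha-1 antitrypsin genes, secreted protease inhibitors made mainly by liver, and Spi1-6 carries the older name of that inhibitor family. Serpina1c had ratios of 0.51, 0.55 and 0.43 at 1 week and of 1.47, 2.17 and 2.36 at 6 weeks. All 6 arrays were positive, with the 6-week arrays well above, and the difference was 1.60 ± 0.27. Spi1-6 read 0.57, 0.23 and 0.01 and then 1.32, 2.0 and 1.71, a difference of 1.42 ± 0.28. Both genes had their highest 6-week values on the dye-reversed array or the array against the 6-week control.

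The alpha-1 antitrypsin genes are near-identical copies, and spots for one can take up RNA of another, so these 2 results and those of Serpina1b (1.17 ± 0.34) and Serpina1d (1.24 ± 0.46), whose spots disagreed, may not be separate. In the wider list of serum and hepatocyte proteins, 3 of 25 measured genes were positive at an unadjusted limma p under 0.05. All 3 were from this family. Apoc1 (-1.14 ± 0.43), an apolipoprotein whose spots disagreed, was the 1 negative gene at that threshold. The shares over all named genes were 1.53% and 1.86%. The median difference of that list was 0.33, beside 0.00 over all named genes, and it ran from -0.11 to 0.44 over the alternatives. Of 8 measured hepatocyte markers, all 8 of which are on that list too, 7 had a positive difference, with a median of 0.41 and list medians of 0.01 to 0.20 on the 1-week arrays against 0.02 to 0.69 at 6 weeks. Their part in the result was not tested.

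Plagl1, an imprinted zinc-finger transcription factor, missed the late class because its 1-week mean was 0.60. It read 0.85, 0.42 and 0.54 at 1 week and 2.23, 2.30 and 2.14 at 6 weeks. The 3 arrays at 6 weeks lay within a narrow band, the same against either control, and none came near the 1-week arrays. The difference was 1.60 ± 0.26, and the 6-week ratio passed in the agreeing-spot fit (adjusted p = 0.00747).

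Aspn encodes asporin, a small leucine-rich proteoglycan that binds collagen. Its ratios were 0.30, 0.72 and 0.33 and then 1.29, 1.35 and 2.11, a difference of 1.27 ± 0.34. The array against the 6-week control was highest. Itm2b, a membrane protein cleaved by furin, was near 0 at 1 week (-0.04, -0.35 and 0.07) and at 1.54, 0.34 and 1.56 at 6 weeks, with the dye-reversed array far below the other arrays and a difference of 1.36 ± 0.31. Iqgap1, a scaffold of the actin cortex, ranged from -0.26 to 1.00 at 1 week and from 1.14 to 1.61 at 6 weeks, with a difference of 1.09 ± 0.42. Tbc1d8, of a family of Rab GTPase activators, had a difference of 0.89 ± 0.32. At 6 weeks 3 of the 6 genes passed in the agreeing-spot limma fit, beside 0.213% of all its genes: Serpina1c (adjusted p = 0.00772), Spi1-6 (0.0219) and Aspn (0.0255). Size at 6 weeks chose these genes, so the count carries no weight of its own.

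On the negative side of the late class, with low ratios at 6 weeks only, the 6 genes with agreeing spots were Mgll, Ucp1, Cox8b, Ckb, Acsl3 and Retnla, of which 2 are on the lipid list, which has 24 such genes in all. Mgll, the lipase that releases the last fatty acid from stored triglyceride, read -0.24, -0.14 and -0.11 at 1 week and -1.08, -1.51 and -1.38 at 6 weeks. The values were tight at both times and did not overlap; the difference was -1.17 ± 0.23, and the 6-week ratio had an adjusted p of 0.0219, the only one of the 6 to pass, with the same limit as on the positive side.

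Ucp1, the uncoupling protein of brown fat, read 0.57, 0.66 and 0.14 and then -1.35, -2.02 and -0.85. Its sign turned between the times, and the lowest value was on the dye-reversed array. The difference was -1.73 ± 0.36, at -1.31 against the 6-week control alone and -2.15 against the 1-week control alone. Cox8b, a cytochrome oxidase subunit of muscle and brown fat, read -0.09, -0.31 and 0.20 and then -1.64, -1.95 and -0.85, a difference of -1.25 ± 0.37 with the same order of the 6-week arrays; it was -0.78 against the 6-week control alone and -1.73 against the 1-week control alone.

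Ckb, the brain-type creatine kinase, had 1-week values of -0.67, 0.06 and -0.03 and 6-week values of -1.40, -0.98 and -1.21. The difference was -0.99 ± 0.31. Acsl3, which activates long-chain fatty acids, had a difference of -0.96 ± 0.24 with 6-week values from -1.17 to -0.79. Retnla, a secreted resistin-like protein made by macrophages and fat, went from -0.20, 0.11 and 0.19 to -0.68, -1.70 and -1.08, a difference of -1.17 ± 0.25. For all 3 genes the 6-week arrays were below every 1-week array.

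The fixed list of lipid and fatty acid genes, chosen with earlier results of these data known, had 31 measured members, of which 23 had a negative difference. Its median difference was -0.28, and it stayed negative in the 29 alternatives, from -0.37 to -0.07. At an unadjusted limma p under 0.05 there were 5 negative members, Fasn, Mgll, Fabp3, Acadm and Ucp1, and 1 positive, Scd2, a desaturase (0.95 ± 0.30), against 1.86% and 1.53% of all named genes. Fasn, the fatty acid synthase, was below 0 on every array: -0.74, -0.36 and -0.49 at 1 week and -1.16, -1.41 and -1.41 at 6 weeks, a difference of -0.81 ± 0.25. Acadm, which oxidises medium-chain fatty acids, had a difference of -1.01 ± 0.31. Fabp3, a fatty acid carrier whose spots disagreed, had -0.84 ± 0.32.

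Of 10 measured adipocyte markers, 3 of them shared with the lipid list, 6 had a negative difference, and the list median was -0.26. At an unadjusted limma p under 0.05, 2 were negative, against 1.86% of all named genes. They were Ucp1 and Thrsp, a lipogenic nuclear protein (-0.82 ± 0.31). The median ratio of the marker list ran from -0.21 to 0.13 over the 1-week arrays and from -0.32 to 0.02 over the 6-week arrays, so the ranges overlapped. The part of fat cells or their RNA in the lipid result was not tested.

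Reversed genes with agreeing spots were few, 4 positive and 3 negative at 6 weeks. Cxcl1, a chemokine for neutrophils, had ratios of -1.89, -0.42 and -0.45 at 1 week and 0.66, 0.36 and 0.77 at 6 weeks. The dye-reversed 1-week array was far lower than the others, and the difference was 1.55 ± 0.52, or 0.12 with both dye-reversed arrays turned. Cst3, the secreted protease inhibitor cystatin C, read -0.44, -0.81 and -0.29 and then 1.21, 0.09 and 0.45, a difference of 1.07 ± 0.28. Rhoj read -0.58, -0.38 and -1.08 and then 0.31, 0.25 and 0.79, a difference of 1.21 ± 0.33. Rpl10a, a protein of the large ribosomal subunit, had a difference of 1.08 ± 0.33 and 6-week values from 0.21 to 0.85. In each of these 4 genes all 1-week arrays were below 0 and all 6-week arrays above it.

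In the other direction, Polr2m, which binds RNA polymerase II, read 0.91, 0.57 and 1.21 and then -1.0, -0.30 and -0.58, a difference of -1.51 ± 0.29. Elp6, a subunit of the Elongator complex, had -1.10 ± 0.26. Alas2, the haem synthesis enzyme of red cell precursors, read 1.78, 0.21 and 0.85 and then -0.09, -0.84 and -0.61, a difference of -1.48 ± 0.49 that became 0.12 when both dye-reversed arrays were turned. The 8 measured erythroid and platelet markers, Alas2 among them, had a median difference of 0.03. None of the 7 reversed genes passed at 6 weeks in the agreeing-spot fit, and Polr2m alone passed at 1 week (adjusted p = 0.0354). Sp110, an interferon-induced nuclear body protein, and Ppp1r15a, which dephosphorylates eIF2alpha after stress, had differences of 1.76 ± 0.27 and 1.51 ± 0.31, but their spots disagreed. Opposite signs on all arrays of the 2 times were found for 307 of 11138 named genes (2.76%).

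Among the pathway lists, the cytosolic ribosome had the largest median difference. Of 64 measured ribosomal protein genes 47 had a positive difference, with a median of 0.40. At an unadjusted limma p under 0.05, 12 were positive, against 1.53% of all named genes, and 1 negative, Rpl8 (-0.88 ± 0.23), which read 0.72, 0.70 and 0.78 at 1 week. The list median was -0.38, -0.40 and -0.44 on the 1-week arrays and 0.01, -0.12 and -0.06 on the 6-week arrays, without overlap. Its median difference was 0.45 with the 6-week dye-reversed array turned, 0.15 with both turned and never below that over the 29 alternatives. One of its members, Rps13, lay at -0.89, -0.76 and -1.21 and then at 0.10, -0.04 and 0.16 (1.04 ± 0.26).

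Of 28 measured translation factors, 5 had a positive difference at that threshold and 1 a negative one. The shares over all named genes were 1.53% and 1.86%. Pabpc1, the poly(A)-binding protein, was below 0 at 1 week (-0.33, -0.11 and -0.30) and above 0 at 6 weeks (0.92, 0.51 and 1.01), a difference of 1.11 ± 0.25. Tpt1, whose mRNA is translated in step with ribosomal protein mRNAs, had 1.29 ± 0.39. Eif4g2, a factor of cap-independent initiation, went the other way, from 0.74, 1.2 and 0.94 to 0.43, -0.14 and -0.25, a difference of -1.01 ± 0.28. The list median was 0.09. In other large complexes the median difference was 0.00 for 56 oxidative phosphorylation genes, with Ndufc2 (0.80, spots disagreeing) and Uqcrfs1 (-0.89) at the threshold. Of 33 proteasome genes 17 had a positive and 16 a negative difference. Their median was 0.07, and -0.03 over the 24 with agreeing spots. At the threshold 2 were positive and 1 negative, among them Psmd6, a subunit of the regulatory particle (1.18 ± 0.27). For both lists the shares over all named genes were again 1.53% positive and 1.86% negative.

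Splicing and RNA-binding genes lay on the opposite side. Of 39 measured, 31 had a negative difference, the median was -0.32, and it was negative in all 29 alternatives, from -0.45 to -0.14. At the threshold there were 2 members (5.13%), both negative, against 1.86% of all named genes. They were Hnrnpm and Srsf5, a serine and arginine-rich splicing factor (-0.83 ± 0.24, but 0.02 with both dye-reversed arrays turned). The list medians overlapped between the times, at 0.05, 0.17 and 0.35 against 0.06, 0.00 and 0.10. In the endolysosome and autophagy list, 28 of 44 differences were negative and 16 positive, with a median of -0.12. At the threshold 5 were negative and 1 positive, against 1.86% and 1.53% of all named genes. Serinc1, a membrane protein, stayed high throughout, at 1.86, 1.79 and 1.89 and then 0.60, 0.65 and 0.91, with every 6-week ratio below the 1-week ones (-1.08 ± 0.24). Gabarap, an autophagosome protein, was the positive member at the threshold (0.96 ± 0.30).

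**Figure D3:**
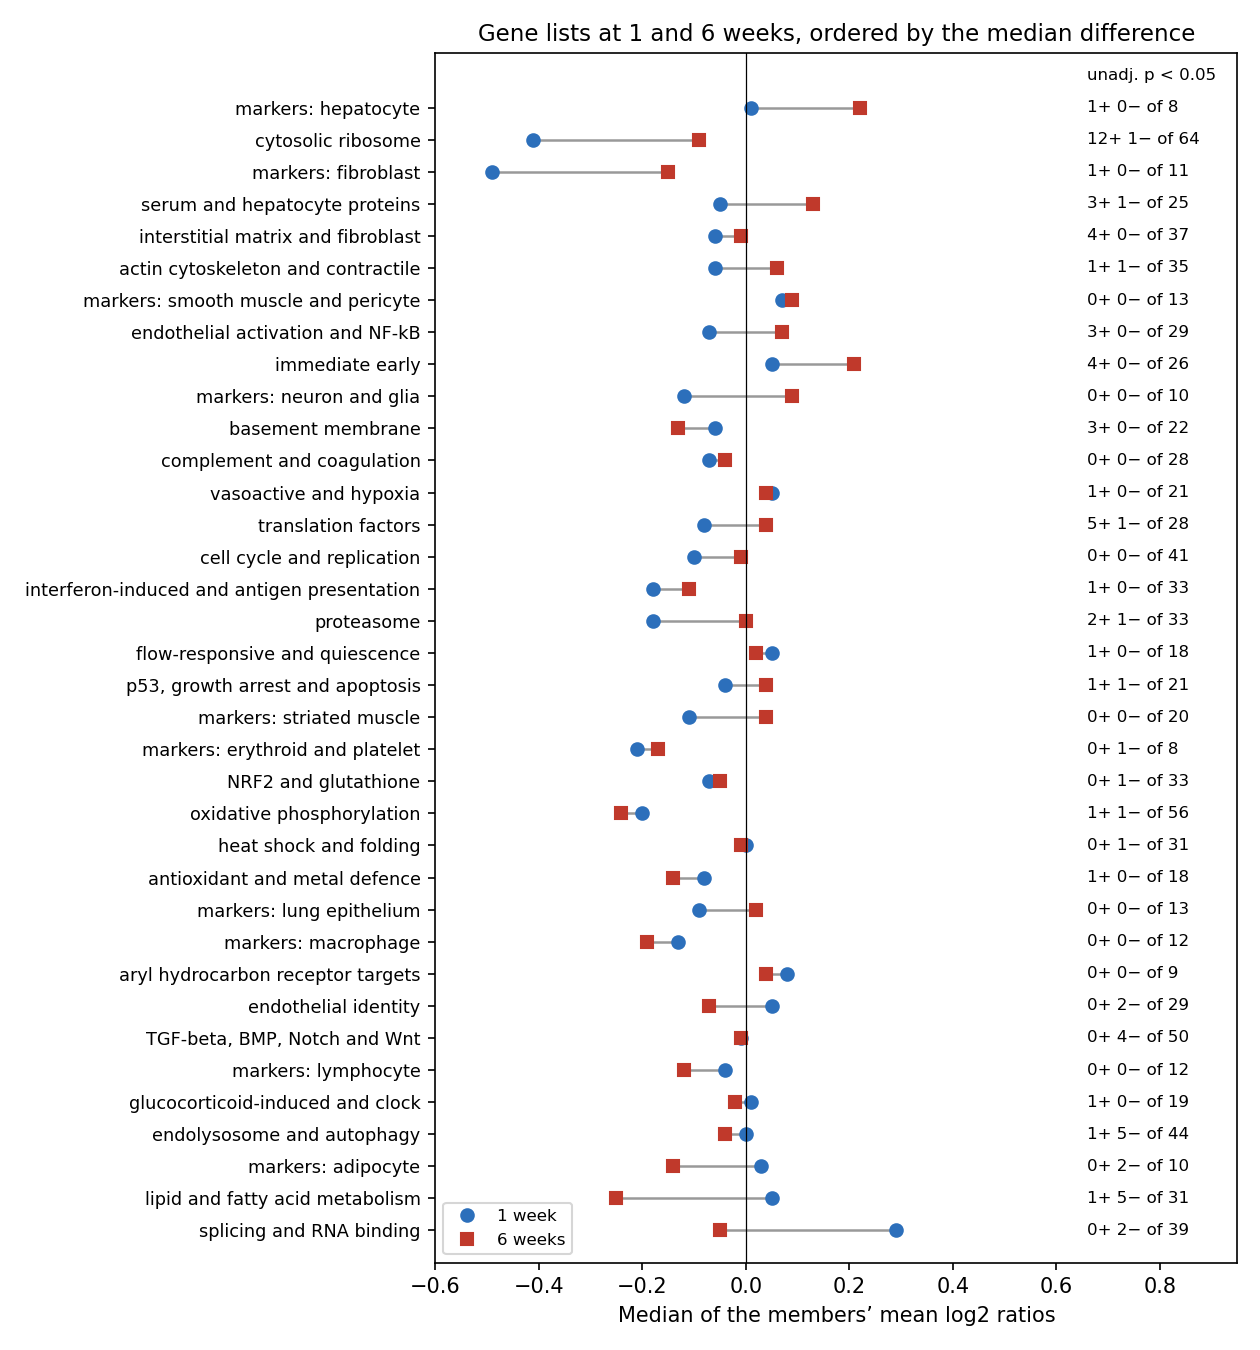
Median over each list's measured members of the mean log2 ratio at 1 week (blue circles) and 6 weeks (red squares), with lists ordered by the median difference and the number of members with an unadjusted p under 0.05 at the right. The cytosolic ribosome moves from -0.41 to -0.09 and splicing from 0.29 to -0.05; for some lists, such as basement membrane, the median of the differences (0.12) and the difference of the medians have opposite signs.

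Of 26 immediate early genes, 15 had a positive and 11 a negative difference. At an unadjusted limma p under 0.05, 4 were positive and none negative, against 1.53% and 1.86% of all named genes: Jund, Dusp1, Ier2 and Nr4a1. Jund, a subunit of the AP-1 transcription factor, was at -0.69, -0.67 and -0.56 and then 0.52, -0.10 and 0.67, a difference of 1.08 ± 0.26. Dusp1, a phosphatase of MAP kinases, had 1.11 ± 0.32, and Ier2 0.76 ± 0.23 with values below 0 on all 1-week arrays and above 0 on all 6-week arrays. Nr4a1, a nuclear receptor, had 0.78 ± 0.25, but -0.06 with both dye-reversed arrays turned. The list's median difference of 0.19 became 0.00 there. As deposited, the list medians were -0.04, -0.01 and 0.25 on the 1-week arrays and 0.14, 0.09 and 0.40 on the 6-week arrays, and overlapped.

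In the list of endothelial activation and NF-kB genes, 23 of 29 had a positive difference, and the median was 0.21. The threshold was reached by 3, all positive, against 1.53% of all named genes: Il6, Cxcl1 and Ptgs2. Il6, an inflammatory cytokine, lay at 0.01, -0.01 and -0.21 at 1 week and at 0.88, 0.69 and 1.21 at 6 weeks, without overlap (1.07 ± 0.26). Ptgs2, the inducible cyclooxygenase, lay at -0.39, -0.05 and -0.27 and then at 0.52, 0.79 and 0.90 (1.02 ± 0.25). The list medians themselves were small, from -0.20 to 0.01 at 1 week and from -0.08 to 0.09 at 6 weeks, and overlapped. Of 33 interferon and antigen presentation genes only H2-Aa, a class II chain (0.75 ± 0.24), reached the threshold (3.03%, against 3.38% of all named genes). Among 12 macrophage and 12 lymphocyte markers none reached it, with median differences of -0.04 and -0.08.

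Of 37 interstitial matrix and fibroblast genes, 27 had a positive difference, and 4 reached the threshold, all positive: Aspn, Postn, Pdgfra and Mgp. Over all named genes 1.53% were positive at the threshold. The median difference was 0.28, and 0.02 with both dye-reversed arrays turned. The list median itself was -0.06 at 1 week and -0.01 at 6 weeks. By array it was -0.17, -0.10 and 0.00 at 1 week and 0.04, 0.01 and 0.00 at 6 weeks, so the times met at 0.00. Postn, the matrix protein periostin, read 0.75, 0.30 and 0.78 and then 0.99, 1.50 and 3.25, so the value rests on the array against the 6-week control: 1.64 ± 0.62 in all, 2.64 on that array alone and 0.64 without it. For Mgp, an inhibitor of calcification, the reverse held, with 1.39 ± 0.44 in all, 0.76 on that array alone and 2.01 without it. Pdgfra, a receptor of fibroblasts, had 0.84 ± 0.31, which was 0.51 without that array and 1.16 on it alone. Of 11 measured fibroblast markers, 10 of which are on the matrix list too, 8 had a positive difference. Their median difference was 0.39, and 0.03 with both dye-reversed arrays turned. As deposited, the median of the fibroblast markers ran from -0.72 to -0.26 at 1 week and from -0.21 to -0.09 at 6 weeks, without overlap. The part of fibroblasts or their RNA in the matrix result was not tested.

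Of 22 basement membrane genes 3 were positive at the threshold, against 1.53% of all named genes. Col4a2, a chain of the collagen IV network, was low throughout, at -1.78, -1.66 and -1.77 and then -0.73, -1.75 and -0.53, with the dye-reversed 6-week array as low as the 1-week arrays (0.85 ± 0.30, or 0.50 without the array against the 6-week control). Col4a1, its partner, whose spots disagreed, had 0.98 ± 0.30 and Lamc1, a laminin chain, 0.66 ± 0.26. Flna, an actin crosslinker, read -0.54, -0.21 and -0.70 and then 0.81, 0.34 and 1.01 (1.28 ± 0.29), and Arpc1b, of the Arp2/3 complex, had -0.85 ± 0.32. They were the 2 actin cytoskeleton genes of 35 at the threshold (5.71%), against 3.38% of all named genes.

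Among signalling genes of the TGF-beta, BMP, Notch and Wnt families, 4 of 50 reached the threshold, all negative: Id3, Smad1, Hey1 and Fzd4. Of all named genes 1.86% reached it with a negative difference and 1.53% with a positive one. Smad1, which carries BMP signals to the nucleus, read 0.59, 0.51 and 0.74 and then -0.25, -0.64 and -0.12 (-0.90 ± 0.25). Hey1, a Notch target of arterial endothelium, read 0.31, 0.31 and 0.55 and then 0.04, -1.03 and -0.69 (-0.98 ± 0.24). Fzd4, the Norrin and Wnt receptor of retinal and brain vessels, read 0.92, 0.95 and 0.93 and then -0.11, -0.19 and 0.25 (-0.88 ± 0.25). In all 3 genes the arrays did not overlap between the times. The list median was -0.07, close to the 0.00 of all named genes, with 32 of the 50 members below 0.

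Endothelial identity genes had a median difference of -0.07 over 29 measured, whose sign turned in 15 of the 29 alternatives. Of these genes 2 were negative at the threshold, against 1.86% of all named genes. The 2 at the threshold were capillary genes: Car4, a carbonic anhydrase on the cell surface, whose spots disagreed (-0.99 ± 0.29), and Aqp1, a water channel (-0.77 ± 0.29, but 0.05 with both dye-reversed arrays turned). None of 9 aryl hydrocarbon receptor targets reached the threshold. Cyp1a1, the oxidase most strongly induced through that receptor, had a difference of -0.05 ± 0.27 with ratios between -0.21 and 0.28 on the 6 arrays, and its spots disagreed. Cyp1b1 was positive on all 6 arrays, from 0.08 to 1.30 at 1 week and from 0.43 to 1.57 at 6 weeks, with a difference of 0.23 ± 0.47 whose sign depended on the arrays kept. Among 33 NRF2 and glutathione genes Taldo1, an enzyme of the pentose phosphate pathway, alone reached the threshold (-0.67 ± 0.23), and among 18 antioxidant and metal defence genes Gpx1 alone, a glutathione peroxidase (0.84 ± 0.29). The heat shock list gave Dnajb9, an endoplasmic reticulum chaperone (-1.04 ± 0.33), and the growth arrest list Gadd45g, a growth arrest and DNA damage protein (0.71 ± 0.25) beside Trp53inp1. No gene reached it among 41 cell cycle and replication genes (median difference 0.08), 28 complement and coagulation genes (0.12), 13 smooth muscle and pericyte markers (0.21), 13 lung epithelium markers (-0.03), 20 striated muscle markers (0.03) and 10 neuron and glia markers (0.18).

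For a description of the same genes on other arrays, the classes were chosen again on the 4 arrays without a dye-reversal label and the difference of the 2 dye-reversed arrays, 6 weeks minus 1 week, was read. Of 133 named genes chosen in this way, 96 had the same sign on the dye-reversed arrays. Among transient genes this held for 17 of 23 positive and 27 of 35 negative ones. Among late genes it held for 17 of 22 and 13 of 13, and among reversed genes for 14 of 23 and 8 of 17. Of the 55 among the 133 with agreeing spots, 50 had the same sign. Agreement of spots was judged on all 6 arrays, the dye-reversed ones included. Among all 5625 genes with agreeing spots, 2785 differences were positive and 2828 negative, with a median of 0.00. With agreeing spots, the chosen transient positive genes had 12 of 14 negative differences, with a median of -0.93, and the transient negative genes 15 of 17 positive ones, with a median of 0.69. The late positive genes were positive in 9 of 9 and the late negative genes negative in 5 of 5, with medians of 0.39 and -0.67. The reversed genes kept their sign in 6 of 7 and 3 of 3.

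These differences were smaller than on the choosing arrays, where the medians were -1.24 and 1.31 for the transient positive and negative genes. The 6-week dye-reversed array holds the same 2 kinds of RNA as replicate 1, which took part in the choice, and the 1-week dye reversal may repeat RNA of another array, so some agreement is built in and the counts support nothing about other mice. They also rest on the deposited sign of the dye-reversed arrays.

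The class differences are also given with the sign of those arrays turned. Late genes were chosen for a large 6-week mean that includes the dye-reversed array, and transient genes for such a 1-week mean. Turning an array that shares the sign of the mean must shrink that mean, so such shrinkage follows from the choice and tests nothing. With the 6-week dye-reversed array turned, the late differences shrank, to 0.51 for Serpina1c, 0.42 for Spi1-6, 0.45 for Plagl1, 0.59 for Aspn, -0.42 for Mgll, -0.72 for Ucp1 and -0.28 for Cox8b. The transient ones were 2.43 for Rps18, 1.68 for Klf2 and -1.61 for Gpr160. With both dye-reversed arrays turned, the transient differences also shrank, to 0.85 for Rps18, 0.58 for Klf2, 0.40 for Dynll1 and -0.77 for Gpr160.

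**Figure D4:**
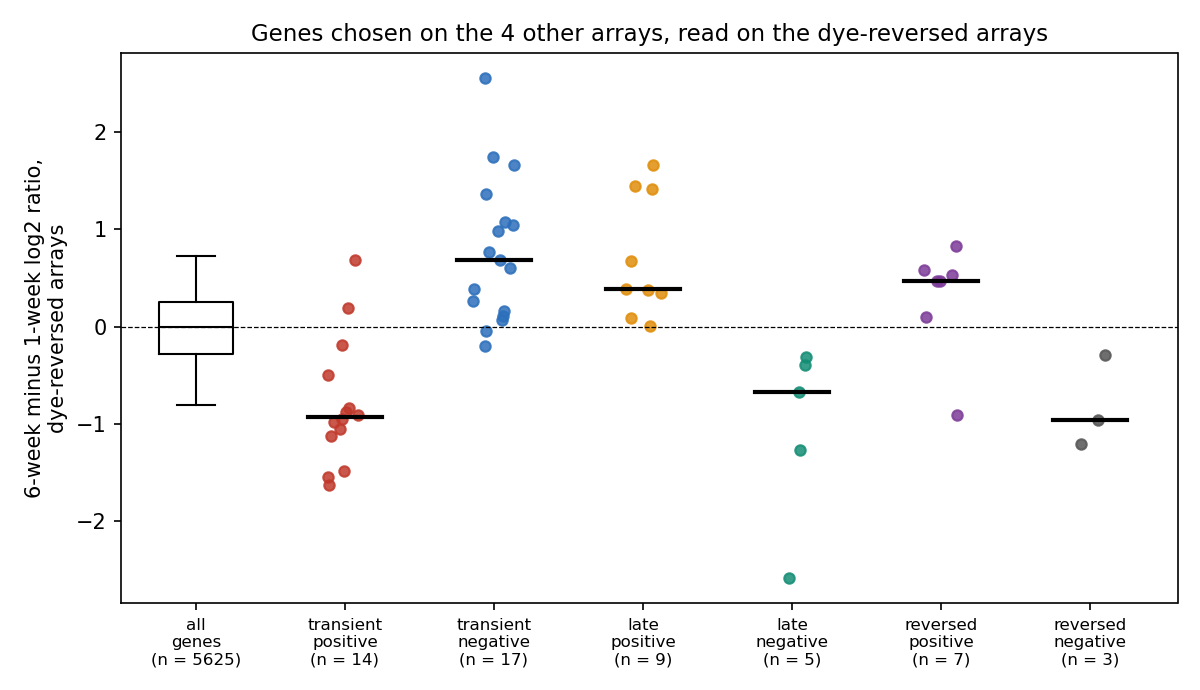
Difference of log2 ratios, 6-week minus 1-week, on the 2 dye-reversed arrays (vertical axis) for genes with agreeing spots whose class was chosen on the 4 other arrays; black bars are medians, and the box for all 5625 genes spans the quartiles with whiskers at the 5th and 95th percentiles. Of the 55 chosen genes, 50 lie on the side of 0 that their class calls for. Without the limit on spots, 96 of the 133 chosen named genes did. Agreement of spots was judged on these arrays too, and replicate 1 at 6 weeks, which took part in the choice, holds the same kinds of RNA. Some agreement is therefore built in.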

How the data were processed

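Per the labels, sorted mouse endothelial RNA after smoke or control treatment was compared on 6 two-colour arrays. The authors deposited log2 ratios for 32448 features per array; scanner, background correction, normalization, filters and dyes are not given in the sources used here. From the values, the deposited log2 ratios are logarithms of folds in whole hundredths (99.99% or more of values, to within 0.02 of a hundredth). Intensities were not used here, so dim spots were not assessed; the number of arrays limits the precision.

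A probe table gave 24344 features 1 symbol and 98 several, and 8006 were not in it; 24076 were matched by Entrez identifier to the RefSeq table of GRCm38.p6, 268 kept their symbol and 0 changed. Spots were averaged per symbol. limma 3.58.1 in R 4.3.3 (lmFit, eBayes, two-sided, Benjamini-Hochberg over 19242 tests) fitted both times on 5 replicates, with 3 residual degrees of freedom and 2.39 prior ones (5.62 in the agreeing-spot fit). The fit was tested on simulated data.

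Members and lists were chosen with earlier results of these data known. Named genes were the smallest p values of non-overlapping genes per sign, of each sign of each class with agreeing spots and of each list, the genes at the class limits, and Cyp1a1, Cyp1b1, Klf2, Plagl1 and Serpina1c. Nr4a1, Postn, Fzd4, Fasn, Scd2, Fabp3, Apoc1, Rpl8, Rps13, Gabarap, Tpt1, Cacybp and the remaining class members were named after their values were seen. Alternatives varied signs, arrays, dye pairing, scaling, spots, moderation and limits.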

Additional observations from a re-analysis of the deposited data

Results flagged for a closer look

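Each of the following genes had a ratio of one sign on every 1-week array and of the opposite sign on every 6-week array. None of these differences, given as 6-week minus 1-week log2 ratios, passed an adjusted p of 0.05 in limma over all tests, and 307 of 11138 named genes (2.76%) show such signs.

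The positive differences were 1.68 for Klf2, 1.55 for Cxcl1, 1.51 for Ppp1r15a, 1.30 for Ctsq, 1.28 for Flna, 1.25 for Mgmt, 1.21 for both Rhoj and Tsen15, and 1.19 for both Cd302, a lectin-like receptor, and Cnih4. They were 1.16 for Naca, 1.11 for Pabpc1, 1.08 for Rpl10a, 1.07 for Cst3, 1.02 for Ptgs2, 0.95 for Scd2, 0.84 for Gpx1, 0.80 for Ndufc2, 0.76 for Ier2, 0.75 for H2-Aa and 0.71 for Gadd45g. The negative differences were -1.75 for Gpr160, -1.73 for Ucp1, -1.51 for Polr2m, -1.48 for Alas2, -1.10 for Elp6, -1.04 for Dnajb9, -0.90 for Smad1 and -0.84 for Fabp3. Spots disagreed by at least 1 log2 unit on some array for Ppp1r15a, Ctsq, Tsen15, Cnih4, Ndufc2 and Fabp3.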

How the results depend on the processing

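The 100 named genes had 2691 values under 21 listed alternatives and 8 chosen after seeing the data; 2676 kept the direction and 15 did not. With both dye-reversed arrays turned, the difference became 0.12 for Alas2, -0.06 for Nr4a1, 0.02 for Srsf5, 0.05 for Aqp1, 0.17 for Cyp1a1 and 0.00 for Tsen15. Cyp1a1 was also 0.06 on the 4 unreversed arrays, 0.10 on first spots, 0.04 without 6-week replicates 1 and 2. Cyp1b1 was -0.56 with the 6-week dye-reversed array turned (also among agreeing spots), and -0.16 without 6-week replicates 1 and 2. Leaving out 1 replicate gave -0.13 to 0.09 for Cyp1a1 and -0.03 to 0.62 for Cyp1b1.

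The 0 calls of the difference became 5 without variance moderation (4 unnamed features and Cacybp, a calcyclin-binding protein) and 1, Rps18 each time, with spots within 0.5, with agreeing spots and the 6-week dye-reversed array turned, or with agreeing spots without 6-week replicate 2. Unadjusted calls (684) were 397 with both dye-reversed arrays turned, 378 with agreeing spots, 191 with spots within 0.5 and 1084 without 6-week replicates 1 and 2. These fits differ in size, with 19242 tests in the main fit, 5625 with agreeing spots and 2023 with spots within 0.5. The counts of 378 and 191 are thus larger shares of their tests than 684 is. With agreeing spots, unadjusted calls were 295 with the 6-week dye reversal turned and 310 on unreversed arrays. Leaving out 1 replicate gave 670 to 1055 (248 to 467 among agreeing spots), the highest without 6-week replicate 3.

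Class counts moved more, but not all are out of the same number of tests. The main fit had 19242 tests, named genes only 11138, agreeing spots (within 1) 5625 and spots within 0.5 2023. A lower count in the smaller fits need not be a lower share. Transient tests (64) were 41 with both arrays turned, 160 on unreversed arrays, 35 without moderation, 31 and 24 with spots within 1 and 0.5, 37 for named genes only, 35 without 6-week replicates 1 and 2, and 34 and 108 with limits of 1.2 and 0.4 or 0.8 and 0.5. Late tests (107) were 56 and 64 with the dye pair kept as 2 replicates, without and with a dye term. They were 65 without moderation, 16 and 11 with spots within 1 and 0.5, 42 for named genes only, 475 without 6-week replicates 1 and 2, and 50 and 185 with the other limits. With agreeing spots they were 5 with the 6-week dye reversal turned and 25 on unreversed arrays. Reversed tests (42) were 80 on unreversed arrays, 20 without moderation, 7 and 2 with spots within 1 and 0.5, and 22 for named genes only. With agreeing spots they were 3 with the dye reversal turned and 15 on unreversed arrays. Leaving out 1 replicate gave 30 to 218 transient, 76 to 500 late and 45 to 82 reversed tests, and 24 to 62, 14 to 35 and 7 to 15 among agreeing spots. The late count of 500 came without the array against the 6-week control, and the transient count of 218 without the 1-week dye-reversed array; fewer replicates must then have one sign. The cause of the other moves was not tested.

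No paired analysis was possible because the labels give no replicate numbers. With 2 replicates at 6 weeks and no intensities, the median standard error of 0.32 limits which differences can be detected.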
